A study of Rattus norvegicus with 16 samples.

Results

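The levels of transcripts in the rat dentate gyrus 12 h into a passive avoidance experiment were set against those at 6 h. The comparison took the 2 arrays labelled 12 h and the 3 arrays labelled 6 h, 5 of the 16 arrays of the series, chosen by their labels alone. Every probe set other than the array's own controls entered it, 8740 of 8799, and 6220 were bright enough to be tested. The study hybridised total RNA from dentate gyrus of Rattus norvegicus to Affymetrix RGU34A arrays, on which each gene is read by 1 or more sets of short probes. Passive avoidance training teaches an animal to hold back from an act or a place it has found to be aversive. The other 11 arrays, labelled naive (3), 0 h (2), 2 h (2), 3 h (2) and 24 h (2), are used below for levels only and for the shared estimate of the spread. The labels describe all samples, the naive ones included, as coming from passive avoidance trained rats, and give no strain, age, sex or shock. They do not state what event the hours follow, or whether each replicate is an animal of its own. The p-values here thus reflect the variation among these arrays, part or all of which may be technical.

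Granule cells of the dentate gyrus receive the main cortical input to the hippocampus and fire sparsely. After learning, waves of transcription are known to run in these cells from immediate early genes, which encode transcription factors and synaptic proteins, to later genes of synapses, metabolism and protein synthesis. Of 26 genes listed as granule neuron markers, 10 were on the array and 9 were tested. Prox1, the factor that defines granule cells, was not measured. Calb1, the calcium buffer calbindin that mature granule cells hold in large amounts, was at 8.53, 8.88 and 8.81 on the log2 scale at 6 h and at 8.30 and 8.90 at 12 h, which overlap.

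Brightness before scaling differed between the 5 arrays. The 2% trimmed mean intensity was 56.5, 68.4 and 109 at 6 h and 33.3 and 116 at 12 h, and 12 h replicate 1 was the dimmest of all 16 arrays. For beta-actin, the control read at the 3' end over that at the 5' end, a ratio that goes up as RNA becomes more fragmented, was 1.92, 2.3 and 2.02 at 6 h and 2.4 and 2.8 at 12 h, with no overlap. The ratio for the Gapdh control overlapped, at 1.25 to 2.04 against 1.6 and 1.7. Correlations between arrays were 0.918 to 0.942 within the 6 h group, 0.931 within the 12 h group, and 0.914 to 0.944 between them, so arrays of the same hour were not more alike than arrays of different hours.

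Compared with 6 h, most genes of oxidative phosphorylation (37 of 49 tested) and of the cytosolic ribosome (30 of 37) had a lower mean at 12 h, where 40.7% of all genes did. Most genes of synaptic vesicle release (34 of 46) and most voltage-gated ion channel genes (31 of 38) had a higher mean, where 59.3% of all genes did. The largest single difference was that of Ttr, the transthyretin gene of choroid plexus, which was 13-fold lower at 12 h. The median difference of immediate early genes, 0.11 on the log2 scale, was close to the 0.09 of all genes.

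No probe set passed limma's test of 12 h against 6 h at a Benjamini-Hochberg adjusted p of 0.05 (0 of 6220, 0%), and the smallest adjusted p was 0.456. An unadjusted p under 0.05 was met by 454 probe sets (7.3%), 284 higher at 12 h (4.57%) and 170 lower (2.73%). Differences below are therefore descriptions of these arrays, and are called higher or lower by their means. On the log2 scale, 345 probe sets differed by more than 1, 222 of them higher at 12 h and 123 lower. Both 12 h arrays lay above every 6 h array for 879 probe sets (14.1%) and below every 6 h array for 386 (6.21%). By the means alone, 3722 probe sets were higher (59.8%) and 2498 lower (40.2%). The median difference over all probe sets was 0.09, with a median standard error of 0.34 for a single one. Of the probe sets at an unadjusted p under 0.05, 62.6% were higher here, 53% with a stricter filter on dim probe sets and 72.9% with no filter. The excess of higher over lower also depended on the scaling, with 41.3% after quantile normalization, 35.7% after median centring and 39.2% after cyclic loess. Under these scalings the median of all probe sets was 0.01, -0.03 and 0, so the difference of each gene list below is best read against the median over all genes.

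**Figure D1:**
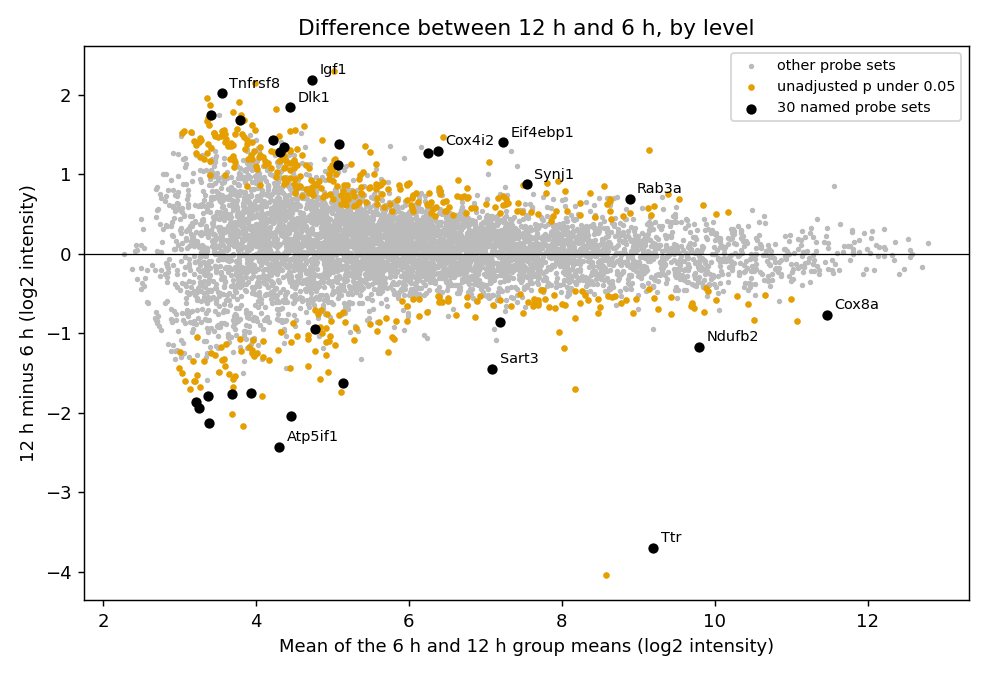
Difference between 12 h and 6 h (vertical, log2 intensity) against the mean of both group means (horizontal, log2 intensity) for the 6220 probe sets tested. Grey points are probe sets, orange points are the 454 at an unadjusted p under 0.05, and black points are the 30 named by the rule; both probe sets of Ttr lie farthest from 0, at -3.70 (named) and -4.04.

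The genes named first are the 15 higher and the 15 lower at 12 h with the smallest unadjusted p, so their size and their lack of overlap between groups follow from the choice. Among the 15 lower at 12 h, 4 belong to oxidative phosphorylation, by which mitochondria make ATP: Ndufb2, Atp5if1, Cox8a and Cox6c. Ndufb2, a subunit of complex I, the chain's entry point for electrons from NADH, read 10.17, 10.36 and 10.61 at 6 h and 8.95 and 9.48 at 12 h. Its difference of -1.17 (SE 0.22, n = 3 and 2) is a 2.24-fold lower level, with the smallest adjusted p of all in limma's fit, 0.456. The group means of Ndufb2 were 10.06 in naive arrays, 10.06, 10.16, 10.45 and 10.38 at 0, 2, 3 and 6 h, 9.21 at 12 h and 10.28 at 24 h. The 12 h group alone stood apart. Cox8a, a subunit of cytochrome c oxidase (complex IV), which passes electrons to oxygen, read 11.86, 12.03 and 11.67 at 6 h and 10.99 and 11.19 at 12 h, a difference of -0.76 (SE 0.20; limma adjusted p = 0.591). Of its other 3 probe sets, 2 were lower too (-0.84 and -0.59) and 1 was level (0.03). For Cox8a both hours were extreme, with 11.85 at 6 h the highest of the 7 group means and 11.09 at 12 h the lowest. Cox6c, another complex IV subunit, read 7.55, 7.33 and 7.98 against 6.92 and 6.62 (-0.85, SE 0.23), while its dimmer second probe set differed by 0.21. Atp5if1, the inhibitor that keeps ATP synthase from running backwards, read 4.86, 5.47 and 6.23 against 2.28 and 3.91 (-2.42, SE 0.51; limma adjusted p = 0.563). The value 2.28 is the lowest level the scale allows, and the 3 other Atp5if1 probe sets differed by -0.41, -0.06 and -0.44. With 12 h replicate 1, the dimmest array, as the only 12 h array, the difference was -1.43 for Ndufb2 and -3.24 for Atp5if1.

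The promoters of the pair of brighter respiratory chain genes are shown because they are the named genes of this kind with the highest levels. Each run is the 250 bases before the annotated start in RefSeq's GRCr8 assembly, with capitals marking exact matches, on either strand, to the cyclic AMP response element TGACGTCA or to the ETS factor core CCGGAAG.
Ndufb2, chr4:69334057-69334306, plus strand: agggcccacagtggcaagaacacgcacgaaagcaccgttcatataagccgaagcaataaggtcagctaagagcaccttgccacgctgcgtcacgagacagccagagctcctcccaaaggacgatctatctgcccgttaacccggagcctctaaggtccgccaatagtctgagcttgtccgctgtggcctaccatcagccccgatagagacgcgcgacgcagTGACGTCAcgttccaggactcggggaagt
Cox8a, chr1:213833624-213833873, minus strand: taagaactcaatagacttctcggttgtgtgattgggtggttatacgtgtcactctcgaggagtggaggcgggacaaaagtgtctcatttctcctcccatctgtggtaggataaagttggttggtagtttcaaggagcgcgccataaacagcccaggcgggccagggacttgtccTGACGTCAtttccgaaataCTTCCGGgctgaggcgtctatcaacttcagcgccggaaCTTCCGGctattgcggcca
The first holds 1 match to the cyclic AMP element, and the second holds 1 such match and 2 to the ETS core. Of 14 respiratory chain genes with a probe set lower at an unadjusted p under 0.05, 12 were in the promoter table. Among those, 2 held the cyclic AMP element, 4 the ETS core, and 0 the core site of the factor NRF1. Over all 21851 protein-coding promoters the shares were 1.89%, 9.01% and 6.47%, and over the 41 tested genes of the fixed oxidative phosphorylation list in the promoter table, which hold Cox8a but not Ndufb2, they were 2.44%, 19.5% and 17.1%. The cyclic AMP element was added to the search after both sequences had been seen, and a match shows only that the letters are present.

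Across the whole set, genes of oxidative phosphorylation lay lower at 12 h. Of 85 listed genes, 49 were tested, each by its brightest probe set, and 37 were lower and 12 higher, with a median of -0.15 against 0.09 over all 3678 genes tested. Over all genes 40.7% were lower (1497). At an unadjusted p under 0.05, 9 of the 49 were lower and 1 higher, against 102 lower (2.77%) and 171 higher (4.65%) of all genes, and 8 of the 49 had both 12 h arrays below every 6 h array, against 230 of all genes (6.25%). In complex I, 14 of 18 subunits were lower, 5 of them at that p, with a median of -0.37. In ATP synthase (complex V), 8 of 10 were lower, 3 at that p, with a median of -0.29. Complex IV had 8 of 12 lower with a median of -0.08, and complex III with cytochrome c 3 of 4 with a median of -0.12. The medians of complexes I and V are thus the most negative. Ndufb2 is not on the list, and Cox8a enters it by its level probe set (0.03).

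Ndufs4, a subunit needed to assemble complex I, read 7.95, 8.78 and 8.62 at 6 h and 6.98 and 7.96 at 12 h (-0.98, SE 0.28). Here 12 h replicate 2 lay just above the lowest 6 h array. Ndufb3, also of complex I, read 9.34, 9.66 and 9.84 against 8.86 and 8.97 (-0.70, SE 0.23). Atp5f1c, the central shaft of ATP synthase, read 9.81, 10.13 and 10.12 against 9.50 and 9.29 (-0.62, SE 0.23). In both, each 12 h array was below each 6 h array. Ndufa3, at 8.32, 8.88 and 9.33 against 8.07 and 8.12, and Atp5f1d, at 9.20, 9.07 and 9.49 against 8.70 and 8.67, were separated in the same way, and the second probe set of Atp5f1d gave -0.59 beside -0.57. Atp5pf, a stalk subunit of ATP synthase, differed by -0.67 (SE 0.24) and by -0.50 on its second probe set. Ndufa6 (-0.53) and Ndufs1 (-1.13) were lower with overlapping groups, and Ndufs1 was near the lowest level. The adjusted p of these genes in limma's fit was 0.591 to 0.660. Cox4i2 went the other way. It encodes the complex IV isoform made mainly in lung and under low oxygen, and read 6.28, 5.16 and 5.75 at 6 h against 6.97 and 7.08 at 12 h (1.30, SE 0.33; limma adjusted p = 0.591). Its 6 h mean, 5.73, was the lowest of the 7 groups, and its 12 h mean, 7.02, differed little from the naive mean of 6.97.

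Genes of the cytosolic ribosome were lower as well. Of 80 listed genes 37 were tested, 30 of them lower (81.1%) and 7 higher, with a median of -0.23. At an unadjusted p under 0.05, 3 were lower (8.11%, against 2.77% of all genes) and 0 higher, and 8 had both 12 h arrays below every 6 h array (21.6%, against 6.25%). Rpl19, a protein of the large subunit, read 11.35, 11.15 and 11.36 at 6 h and 10.70 and 10.73 at 12 h (-0.57, SE 0.17). Rpl35a read 9.61, 10.03 and 10.44 against 9.53 and 9.24 (-0.64, SE 0.25), and Rpl18 9.39, 9.18 and 9.89 against 8.81 and 9.06 (-0.55, SE 0.26). In all 3 the groups did not overlap. The ribosomal median was -0.33 without 12 h replicate 1 and -0.08 without 12 h replicate 2. Ribosomal protein genes have many pseudogenes, which probe sets of this kind may share.

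The proteasome list, 32 genes tested, was balanced in direction (15 higher, 17 lower, median -0.03), but its 4 members at an unadjusted p under 0.05 were all lower (12.5%, against 2.77% of all genes). Ube2a, a ubiquitin-conjugating enzyme, read 6.92, 7.10 and 7.55 against 6.54 and 6.65 (-0.59, SE 0.22). Psmb2, a subunit of the proteasome, read 8.89, 9.03 and 9.47 against 8.28 and 8.83 (-0.58, SE 0.24), and Psma5 differed by -0.53 with overlap. Psmb9, an immunoproteasome subunit, rested on 1 array, at 2.28 on 12 h replicate 1 and 4.36 on replicate 2, beside 4.55 to 4.60 at 6 h. Without 12 h replicate 2 the difference of Psmb9 was -2.29.

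Genes of synaptic vesicle release lay higher at 12 h. These encode the proteins that dock vesicles at the presynaptic membrane, fuse them on calcium entry and retrieve them. Of 70 listed genes 46 were tested, 34 higher (73.9%, against 59.3% of all genes, 2181 of 3678) and 12 lower, with a median of 0.22. At an unadjusted p under 0.05, 5 were higher (10.9%, against 4.65% of all genes) and 1 lower. For 9 of the 46 (19.6%), and for 15% of all genes, both 12 h arrays lay above every 6 h array, and 0 were separated in the other direction, where the share of all genes is 6.25%. Rab3a, the small GTPase on synaptic vesicles that readies them for release, read 8.59, 8.61 and 8.43 at 6 h and 9.45 and 9.03 at 12 h (0.70, SE 0.20, 1.62-fold; limma adjusted p = 0.591). Its 6 h mean of 8.54 was the lowest of the 7 groups, and its 12 h mean of 9.24 was close to the naive mean of 9.17. Syn1, synapsin I, which tethers vesicles to actin, read 8.71, 7.96 and 8.21 against 9.23 and 8.73 (0.69, SE 0.24). Vamp2, the vesicle SNARE that drives fusion, read 10.24, 9.67 and 9.83 against 10.27 and 10.60 (0.52, SE 0.23), and its second probe set differed by 0.72. In Rab3a, Syn1 and Vamp2 every 12 h array was above every 6 h array, narrowly so for Vamp2 and Syn1. Synj1, the lipid phosphatase that uncoats retrieved vesicles, read 7.56, 6.47 and 7.28 against 8.05 and 7.92 (0.88, SE 0.26; limma adjusted p = 0.627), with 0.38 on its second probe set. Unc13c (0.97) and Rims1 (0.84), which prime vesicles at the active zone, were higher from low levels. Sh3gl2, endophilin A1, was the exception at 6.27, 5.77 and 6.86 against 6.09 and 4.43 (-1.04, SE 0.41), a value set by 12 h replicate 2. Snap25, a partner of Vamp2 in fusion, differed by 0.11 (SE 0.20), with -0.06 to 0.58 on its other probe sets.

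Voltage-gated ion channels also had mostly higher means. Of 65 listed genes 38 were tested, 31 higher (81.6%) and 7 lower, with a median of 0.22. At an unadjusted p under 0.05, 7 were higher (18.4%, against 4.65% of all genes) and 0 lower. For 7 every 12 h array lay above every 6 h array (18.4%), near the 15% of all genes. Other probe sets of the listed genes went the other way. Scn3a differed by -1.79 (SE 0.49) on a dim probe set and by 0.38 on the brighter one that enters the list. Kcnd2 differed by -1.49 (SE 0.59) and, on the one that enters, by 0.44. Cacna1b, the pore of the N-type calcium channel that triggers transmitter release, read 6.77, 7.27 and 6.83 at 6 h and 7.51 and 7.66 at 12 h (0.63, SE 0.23), but its second probe set differed by -0.38. Cacnb1, an auxiliary calcium channel subunit, read 5.76, 5.13 and 5.08 against 6.27 and 6.01 (0.82, SE 0.32). Kcnn1, a potassium channel opened by calcium rather than by voltage, read 5.47, 4.84 and 4.66 against 5.88 and 5.64 (0.77, SE 0.31). These 3 separate the groups. Kcnab1, a beta subunit of potassium channels, did not, at 2.65, 2.45 and 6.50 against 6.34 and 5.99. Its difference of 2.30 (SE 0.78; limma adjusted p = 0.660) became 3.62 without 6 h replicate 3. Limma's adjusted p was then 7.49e-05, but this rests on leaving out the 1 array that goes against the difference. Cacna1c, the L-type calcium channel pore, was at or near the lowest level at 6 h (2.28, 2.28 and 3.04) and at 4.45 and 4.12 at 12 h (1.75, SE 0.51), with 0.60 on its brighter probe set. Kcnc4 (0.87) and Kcna5 (1.91) were also higher, and Kcna5 was uneven at 12 h, with 5.61 and 3.85. The channel median was 0.47 without 12 h replicate 1, 0.33 without 6 h replicate 2 and 0.22 without 12 h replicate 2.

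The beta-actin ratio was higher on both 12 h arrays, and it lies beside each of these lists. With it as a covariate, the medians were -0.24 for oxidative phosphorylation, -0.23 for ribosomal proteins, 0.35 for vesicle release and 0.32 for channels. Each was at least as far from 0 as without it. Other lists moved in both directions. The median of glutamate receptors went from 0.15 to 0.3, of trophic factors from 0.15 to 0.08, and of microglia from 0.11 to -0.06. The ratios at 12 h did not overlap those at 6 h, so separating the ratio from the hour rests on a slope fitted within groups. That slope was assumed to be the same in all 7 groups, and each group held only 2 or 3 arrays. The part of RNA fragmentation in these differences was not tested. Under quantile normalization the medians of oxidative phosphorylation, ribosomal proteins, vesicle release and channels were -0.14, -0.13, 0.16 and 0.14. Under median centring they were -0.27, -0.34, 0.10 and 0.11, and under cyclic loess -0.12, -0.15, 0.15 and 0.15. The sign of each median was thus the same under these scalings. The median for oxidative phosphorylation was -0.29 when all probe sets of a gene were averaged, -0.27 without 6 h replicate 1 and -0.25 without 12 h replicate 1.

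On each array, a list was also summarised by the median, over its genes, of the deviation from the gene's mean over all 16 arrays. For vesicle release this was -0.01, -0.22 and -0.11 at 6 h and 0.21 and 0.14 at 12 h, and both 12 h values exceeded those of the other 14 arrays. Over all genes the same median was 0.01, 0.05 and -0.03 at 6 h and 0.04 and 0.13 at 12 h. The vesicle value of 0.14 on 12 h replicate 2 was thus close to the 0.13 of all genes on that array. For oxidative phosphorylation the median was -0.04, 0.16 and 0.16 at 6 h and -0.09 and -0.11 at 12 h, while naive arrays stood at 0.01, -0.09 and -0.18. The 12 h arrays thus lay within the naive range for this list. For ribosomal proteins it was 0.09, 0.10 and 0.30 at 6 h, 0.01 and -0.19 at 12 h, and -0.14, -0.21 and -0.17 in naive arrays. For channels the values were -0.08, 0.02 and -0.12 at 6 h and 0.06 and 0.18 at 12 h. Naive arrays stood at -0.07, 0.06 and 0.03, and the highest value was 0.29 on 2 h replicate 1.

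**Figure D2:**
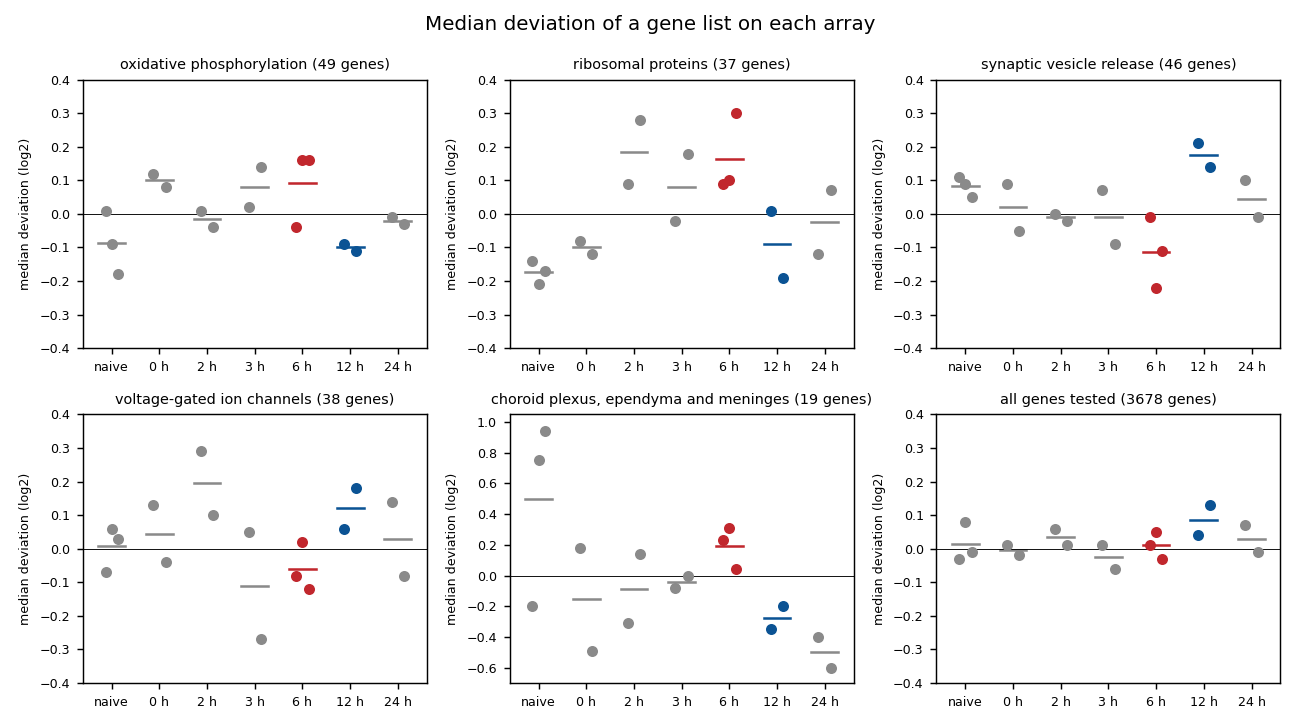
Median deviation (log2) of each gene list from the mean of all 16 arrays, by group; points are arrays and lines are group means, and the panel for choroid plexus has a wider axis. Vesicle release is highest on both 12 h arrays (0.21 and 0.14), where all genes stand at 0.04 and 0.13. The choroid plexus list ranges from -0.60 to 0.94.

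Ttr had the largest difference of all probe sets. It encodes transthyretin, the thyroid hormone carrier that choroid plexus makes in great amounts, and read 11.90, 10.26 and 10.98 at 6 h and 6.95 and 7.75 at 12 h, a difference of -3.70 (SE 0.93) or 13-fold (limma adjusted p = 0.591). Its second probe set gave 12.11, 8.60 and 11.09 against 6.08 and 7.04 (-4.04, SE 1.16). The group means were 11.35 in naive arrays, 9.10, 7.52 and 7.28 at 0, 2 and 3 h, 11.05 at 6 h, 7.35 at 12 h and 6.14 at 24 h. Neither hour was outside the range of the other groups. A list of choroid plexus, ependyma and meninges markers, which holds Ttr, was fixed as well. Of 33 genes 21 were on the array and 19 were tested, 12 lower and 7 higher, with a median of -0.42, and 5 were lower at an unadjusted p under 0.05 (26.3%, against 2.77% of all genes) and 0 higher. Their summed linear level was 3540 to 5840 at 6 h and 1640 and 2100 at 12 h, with naive arrays at 3120 to 7170. It was 4490 and 1400 at 0 h, 1280 and 3580 at 2 h, 1820 and 1880 at 3 h, and 1120 and 1070 at 24 h. Low sums were thus not particular to 12 h. Without Ttr the sums were 2010, 2420 and 1520 at 6 h and 1520 and 1890 at 12 h, which overlap, so Ttr carried the gap in the sum. The median of the other 18 genes was -0.38, with 11 lower and 7 higher.

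Besides Ttr, the members lower at that p were dim. Slc22a6, an organic anion transporter, read 4.04, 5.03 and 2.92 at 6 h and 2.28 and 2.51 at 12 h (-1.60, SE 0.65). Slc5a5, the iodide transporter, read 4.77, 3.72 and 4.25 against 2.87 and 2.98 (-1.32, SE 0.58). Prlr, the prolactin receptor, read 4.85, 4.51 and 4.54 against 4.14 and 2.95 (-1.09, SE 0.36), but its other probe sets gave -1.70 and 0.60. Htr2c, the serotonin receptor most abundant in choroid plexus, was at the lowest level of 2.28 on both 12 h arrays and at 2.88, 4.22 and 4.24 at 6 h. Aqp1, the choroid water channel, was likewise at 2.28 on both 12 h arrays and on 1 of the 6 h arrays. Enpp2, autotaxin, which choroid plexus secretes, read 8.91, 7.14 and 7.49 against 7.07 and 7.30, with overlap, and -1.09 on its second probe set. Among meningeal genes on the list, Col1a2 differed by 0.08, Dcn by 0.18, Igf2 by 0.15, Col3a1 by 0.62, Ptgds by -0.02 and Col1a1 by -0.33. The list's median was -0.63 without 12 h replicate 2, -0.83 without 6 h replicate 3, and -0.02 with a stricter filter on dim probe sets. In RNA from whole tissue, fewer cells of a type and less RNA per cell cannot be told apart, and the part of this tissue in the other differences was not tested.

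The remaining marker lists differed less. Astrocyte genes (15 tested) had a median of 0.03, endothelium and mural cells (18) 0.03, granule neurons (9) 0.05, interneurons (15) 0.07 and microglia (10) 0.11, all near the 0.09 of all genes. Of pyramidal neuron markers only 3 were tested, all lower, with a median of -0.19, and of thalamus markers 4, with a median of 0.26. Oligodendrocyte genes (13) had 10 higher and a median of 0.20. At an unadjusted p under 0.05, however, 0 were higher (against 4.65% of all genes) and 1 was lower (7.69%, against 2.77%). The groups were separated upward for 0 of them (against 15% of all genes) and downward for 1 (7.69%, against 6.25%). Mbp, the myelin basic protein, read 10.78, 10.11 and 10.33 against 11.29 and 10.48 (0.48, SE 0.28), with overlap. The blood cell list (10) had a median of 0.29, but Hbb, adult beta globin, read 9.38, 9.82 and 9.71 against 9.27 and 9.63. The blood gene at an unadjusted p under 0.05 was Hbe1, an embryonic globin, at 3.61, 2.28 and 2.95 against 4.58 and 4.69. The oligodendrocyte median was 0.41 and the blood median 0.07 without 6 h replicate 1. The part of these cell types in the other differences was not tested.

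Of the genes named as higher at 12 h, 4 not yet described are given in full. Dlk1, a membrane protein related to Notch ligands, read 3.45, 3.05 and 4.08 at 6 h and 5.35 and 5.39 at 12 h (1.84, SE 0.40, 3.59-fold; limma adjusted p = 0.563). Igf1, insulin-like growth factor 1, read 4.16, 3.57 and 3.19 against 5.73 and 5.93 (2.19, SE 0.58), yet its other probe sets gave -0.67 and 0.16. Eif4ebp1, which holds back cap-dependent translation until mTOR phosphorylates it, read 6.74, 5.89 and 6.95 against 7.93 and 7.94 (1.41, SE 0.32; limma adjusted p = 0.581), with -0.38 and 0.04 on its other probe sets. For Igf1 and Eif4ebp1 the difference is thus that of 1 probe set of 3. Eif2ak3, the kinase PERK, which slows translation under endoplasmic reticulum stress, read 3.73, 3.70 and 3.66 against 5.27 and 4.82 (1.35, SE 0.40), and 0.53 on its second probe set. Dlk1 had its lowest group mean at 6 h (3.53) and its highest at 12 h (5.37), with 5.01 in naive arrays.

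The other genes named as higher were mostly dim. Pitx3, a homeobox factor of dopamine neurons, read 4.77, 4.57 and 3.87 against 5.63 and 5.93. Evl, an actin regulator, read 4.56, 4.70 and 4.28 against 5.80 and 5.47. Cyp1a2, a cytochrome P450 of liver, read 3.52, 3.77 and 3.74 against 4.94 and 4.97. In each the groups were well apart, by a difference of 1.12 (Evl) to 1.38 (Pitx3). Akr1c3, a steroid-reducing enzyme, differed by 1.44 (0.41 on its second probe set), and Tnfrsf8, the receptor CD30, by 2.02, with 2 of its 3 arrays at 6 h at the lowest level. Prp2l1, a proline-rich protein gene read by probes shared within a gene family, differed by 1.28, and its other probe sets by -1.25 and 1.48.

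**Figure D3:**
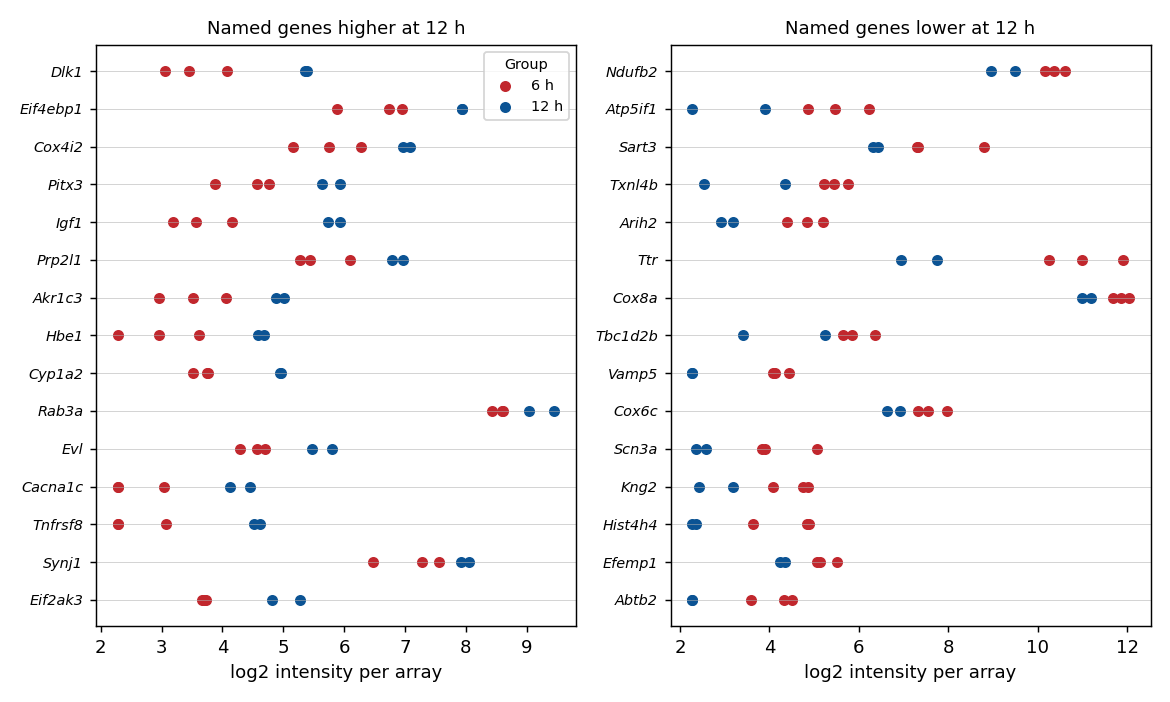
Level (log2 intensity, horizontal) on each 6 h and 12 h array for the 15 named genes higher and the 15 lower at 12 h. Each point is 1 array; the groups are apart in every row because the genes were chosen for this difference, and the level 2.28 at the left edge is the lowest the scale allows.

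Among the other genes named as lower, Sart3, which recycles spliceosome particles, was the brightest, at 7.33, 8.80 and 7.31 against 6.31 and 6.43 (-1.44, SE 0.33; limma adjusted p = 0.581). Txnl4b, a spliceosome-associated protein, read 5.75, 5.44 and 5.23 against 4.35 and 2.53, and Tbc1d2b, a regulator of Rab GTPases, 5.84, 6.36 and 5.64 against 5.24 and 3.42. Both were much lower on 12 h replicate 2 than on replicate 1. With replicate 2 as the only 12 h array, the difference was -2.94 for Txnl4b and -2.53 for Tbc1d2b. Arih2, a ubiquitin ligase, read 5.19, 4.39 and 4.84 against 3.19 and 2.93 (-1.75, SE 0.43), with 0.09 on its second probe set. Efemp1, a matrix fibulin, read 5.52, 5.14 and 5.07 against 4.24 and 4.36 (-0.95, SE 0.27). Vamp5, a SNARE of muscle, was at the lowest level on both 12 h arrays, so it was at least 3.83-fold lower, but its second probe set differed by 1.04. Abtb2 (-1.87), Hist4h4 (-2.13), Kng2 (-1.76) and Scn3a (-1.79), a sodium channel of the developing brain, were also near the lowest level at 12 h. The second probe set of Scn3a differed by 0.38.

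The named genes can be placed against the rest of the series. For 11 of the 15 higher genes both hours lay outside the range of the 5 other group means, with 6 h below all and 12 h above all, and for the other 4 only 12 h did. Of the 15 lower genes, 9 had only 12 h outside, 5 both hours and 1, Ttr, neither. Among all 454 probe sets at an unadjusted p under 0.05, 220 had only 12 h outside (48.5%), 136 both (30%), 70 only 6 h (15.4%) and 28 neither (6.17%). Over all 6220 the shares were 25.4%, 19.7%, 13.5% and 41.4%. Since the 454 were chosen by the same 5 arrays, these shares are a description.

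**Figure D4:**
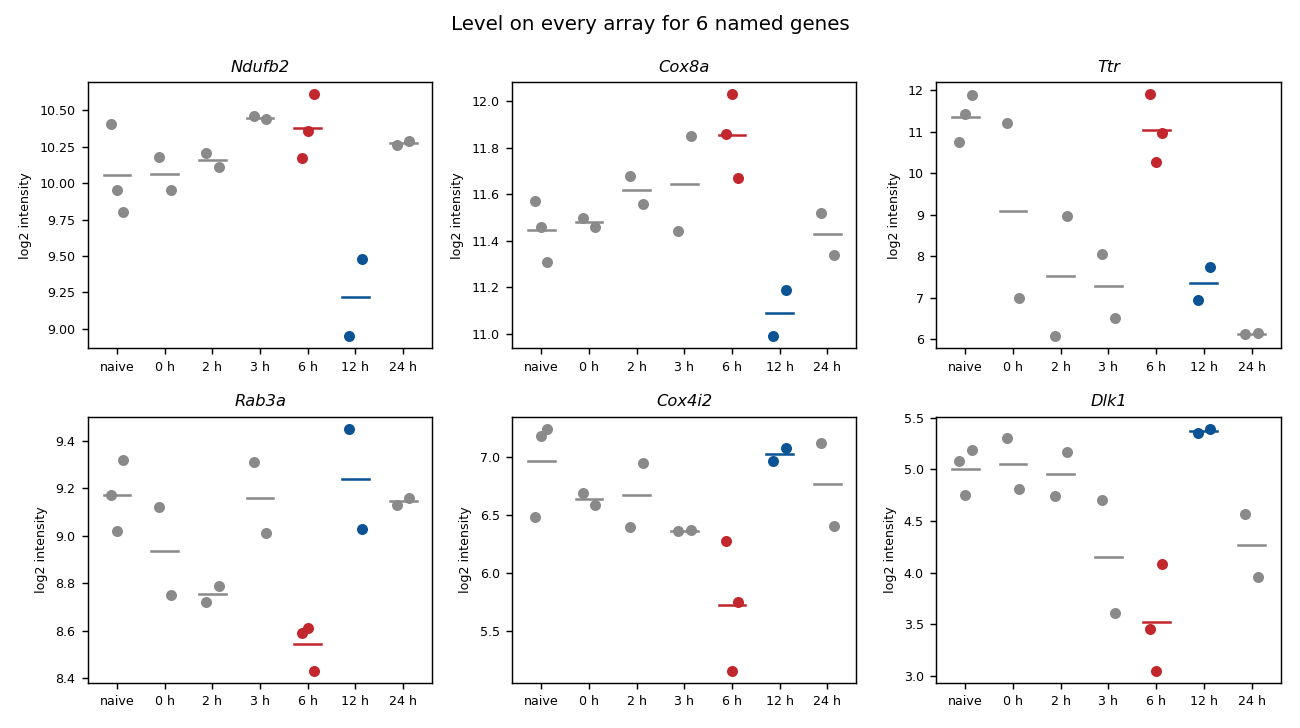
Level (log2 intensity) of 6 named genes on every array, by group from naive to 24 h; points are arrays and lines are group means. Ndufb2 is lowest at 12 h (mean 9.21), Rab3a, Cox4i2 and Dlk1 are lowest at 6 h, and Ttr varies widely within and between groups.

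Immediate early genes, which neuronal activity switches on within minutes, were near the background. Of 28 tested, 16 were higher (57.1%, against 59.3% of all genes) and 12 lower, with a median of 0.11. At an unadjusted p under 0.05, 2 were higher (7.14%, against 4.65% of all genes) and 0 lower (against 2.77%). Nptx2, a secreted protein that clusters AMPA receptors, read 7.22, 7.07 and 7.04 at 6 h and 7.59 and 7.92 at 12 h (0.65, SE 0.22), with -0.16 on its second probe set. Atf3, a stress-induced factor, differed by 0.86 (SE 0.36). Fos read 6.39, 6.41 and 6.33 against 6.76 and 6.20 (0.10, SE 0.25), Arc 7.15, 7.22 and 6.90 against 7.63 and 7.25 (0.35, SE 0.21), and Egr1 8.45, 9.52 and 8.19 against 8.99 and 9.32 (0.43, SE 0.30). The unadjusted p was 0.687, 0.114 and 0.168 for these 3, and only for Arc did the groups not overlap. Junb was lower on its brighter probe set, at 5.52, 5.75 and 5.84 against 5.38 and 4.79 (-0.62, SE 0.33), and its second read 3.19 on 12 h replicate 1 and 6.28 on replicate 2. With replicate 1 as the only 12 h array, that second probe set of Junb differed by -2.53.

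Clock genes cycle over the day, and the labels give no time of day. Of 25 listed genes 10 were tested, 5 higher and 5 lower, with a median of -0.02. At an unadjusted p under 0.05, 2 were higher (20%, against 4.65% of all genes) and 1 lower (10%, against 2.77%). Nr1d1, the repressor REV-ERB alpha, read 6.07, 6.21 and 6.17 against 6.74 and 6.89 (0.66, SE 0.31), and its second probe set differed by 0.34. Bmal1, the activator that Nr1d1 represses, read 5.35, 4.92 and 5.29 against 3.84 and 5.03 (-0.75, SE 0.33), but its second probe set differed by 0.56. Tef differed by 0.62 (SE 0.29), whereas Dbp, a close relative driven by the same clock, differed by -0.08 (SE 0.30) and Per2 by -0.44 (SE 0.32). Adjusted p in limma's fit was 0.660 to 0.969 for these 5 clock genes. The 15 glucocorticoid responsive genes tested had a median of 0.02, and Cdkn1a, the cell cycle inhibitor p21, read 5.48, 6.07 and 5.30 against 3.87 and 4.24 (-1.57, SE 0.47).

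Of the trophic factors and neuropeptides, 27 of 39 genes had a higher mean (69.2%, against 59.3% of all genes), with a median of 0.15. Of these 39, 8 were separated upward (20.5%, against 15% of all genes) and 0 downward (against 6.25%). Ntrk2, the receptor of BDNF, read 8.35, 7.50 and 7.90 against 8.43 and 8.69 (0.64, SE 0.28). Pnoc, the precursor of nociceptin, read 6.94, 7.18 and 6.64 against 7.42 and 7.64 (0.61, SE 0.24), with 0.52 and 0.17 on its other probe sets. Tac3, the neurokinin B precursor, read 3.25, 4.05 and 4.42 against 5.50 and 4.68 (1.18, SE 0.38). Each of these 3 was higher on both 12 h arrays than on any 6 h array. Bdnf itself differed by -0.33 (SE 0.37), and its 7 probe sets ranged from -0.58 to 0.50.

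Receptor and signalling lists lay close to the median of all genes. Glutamate receptors and scaffolds (34 tested) had a median of 0.15, with Grid1, the delta 1 subunit, at 3.67, 4.66 and 5.10 against 5.91 and 5.30 (1.13, SE 0.43). The GABA system (20) had a median of 0.12, with Gabbr2, a subunit of the GABA-B receptor, at 9.55, 9.83 and 9.24 against 10.54 and 9.77 (0.62, SE 0.25). Genes of calcium, cyclic AMP and MAP kinase signalling (62) had a median of 0.09, the same as all genes, with 13 separated upward (21%, against 15% of all genes) and 1 downward (1.61%, against 6.25%). At an unadjusted p under 0.05, 4 of its members were higher (6.45%, against 4.65% of all genes) and 0 lower. Nras, a Ras GTPase, read 6.23, 5.53 and 6.20 against 6.84 and 6.79 (0.83, SE 0.25), with 0.03 on its second probe set. Araf, a Raf kinase, read 5.87, 5.81 and 5.71 against 6.35 and 6.55 (0.65, SE 0.25). Camk1g differed by 0.87 and Rasgrf1, a Ras exchange factor of neurons, by 0.48. In Nras and Araf the groups did not overlap.

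Cell adhesion and matrix genes (55) had a median of 0.12. At an unadjusted p under 0.05, 1 member was higher (1.82%, against 4.65% of all genes) and 1 lower (1.82%, against 2.77%). Cd44, the hyaluronan receptor, read 4.23, 3.49 and 4.25 against 2.45 and 2.84 (-1.34, SE 0.43). St8sia2, which adds polysialic acid to NCAM, read 3.33, 3.60 and 2.46 against 4.82 and 3.80 (1.18, SE 0.54). Cytoskeleton and neurite growth genes (39) had a median of -0.03 and 0 members at that p. Heat shock proteins and chaperones (37) had a median of 0.05, with Hyou1 at 7.90, 7.39 and 7.65 against 8.07 and 8.06 and Cryab, a small heat shock protein, at 7.69, 8.36 and 7.77 against 7.39 and 7.26, though the second probe set of Cryab differed by 0.35. Glycolysis (23) had a median of 0.09, and Pfkm, the muscle-type phosphofructokinase, read 9.94, 9.63 and 9.72 against 10.06 and 10.47 (0.50, SE 0.21), with -0.17 on its second probe set. In glycolysis 7 members were separated upward (30.4%, against 15% of all genes) and 3 downward (13%, against 6.25%). In cytoskeleton and neurite growth, 51.3% of the genes had a lower mean, against 40.7% of all genes.

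**Figure D5:**
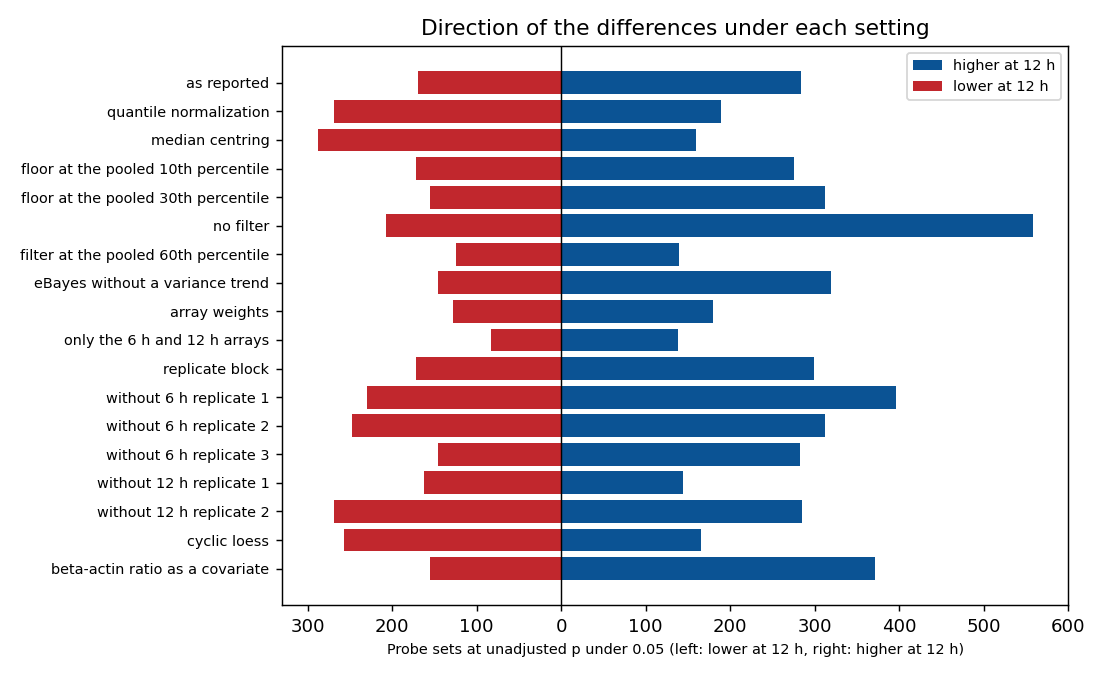
Number of probe sets at an unadjusted p under 0.05 that were lower (left) or higher (right) at 12 h under each setting. Higher outnumbers lower as reported (284 against 170), and the order turns under quantile normalization (189 against 269), median centring (160 against 288), cyclic loess (166 against 257) and without 12 h replicate 1 (144 against 162).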

How the data were processed

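The authors deposited 1 linear intensity per probe set and array, in a single table of the series. How they were computed from the scans is not given in the sources used here. Samples were grouped by their labels. Arrays were brought to 1 trimmed mean (2%, set at 101) over the probe sets that are not controls, values under the pooled 20th percentile (4.86) were raised to it, and log2 was taken, so 2.28 is the lowest level. The test took probe sets that exceeded 16.3, the 40th percentile of all arrays, on 2 or more of the 16. With limma 3.58.1 in R 4.3.3, 1 mean per group was fitted over all 7 groups (lmFit, eBayes with a variance trend, 9 residual degrees of freedom), and 12 h minus 6 h was adjusted by Benjamini-Hochberg over the 6220 probe sets. The number of arrays limits the precision. No batch or scan date was used.

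Of the 8740 probe sets, 7006 carried 1 gene symbol in the platform annotation, 308 more than 1, and 1426 have no entry and stay unnamed. Symbols were updated by gene identifier where it matched (6985 annotation rows). The probe sets tested cover 3678 genes, 1091 of them by more than 1. A list uses each gene's probe set with the highest mean. The rule named the 15 higher and the 15 lower genes with the smallest unadjusted p, and any member of a list could be named too. The comparison, lists and rule were chosen with earlier results of these data known. The models were tested on simulated data.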

Additional observations from a re-analysis of the deposited data

How the results depend on the processing

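The counts given are probe sets at an adjusted p under 0.05, then those higher and lower at 12 h at an unadjusted p under 0.05, all from limma. As reported they were 0, 284 and 170. Quantile normalization gave 0, 189 and 269, median centring 0, 160 and 288, and cyclic loess, chosen after seeing the data, 0, 166 and 257. With no filter the counts were 15, 558 and 207, and all 15 were dim probe sets higher at 12 h, 13 of them outside the main test. Cacna1c was among the 15 (adjusted p = 0.0162). A stricter filter gave 0, 140 and 124, array weights 0, 180 and 128, and a fit of only the 6 h and 12 h arrays 0, 138 and 83. Leaving out 1 array at a time gave 0 to 13 at an adjusted p under 0.05, 144 to 396 higher and 146 to 269 lower. The 13 arose without 12 h replicate 2, where the lone 12 h array is the dimmest of the series and is assumed to vary like the other groups, and included Ndufb2 (-1.43, adjusted p = 0.0451) and Atp5if1 (-3.24, adjusted p = 0.0437). With 12 h replicate 2 alone there were 3, including Kcnd2 (-2.97, adjusted p = 0.0452), whose main difference was -1.49.

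The hours share replicate numbers 1 and 2 in the labels. Deviations of same-numbered arrays correlated at 0.15 and 0.09, against -0.15 to 0.05 for the other pairings. With 2 arrays at 12 h, whose deviations mirror each other, this cannot decide on pairing, and the main fit does not use the numbers as pairs. With a replicate block the counts were 0, 299 and 172.

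The direction of the 30 named probe sets held in every alternative in which they were fitted (16 or 17 each). For the fits without 1 array this was fixed in advance, since all 30 were chosen by these arrays and separate the groups. Fits with no filter, without a variance trend or of only the 6 h and 12 h arrays leave the difference itself unchanged. Over 18 alternatives the list medians ranged from -0.29 to -0.12 for oxidative phosphorylation, -0.34 to -0.08 for ribosomal proteins, 0.10 to 0.35 for vesicle release, 0.11 to 0.47 for channels and -0.83 to -0.02 for choroid plexus. The median of immediate early genes had its sign in 17 of 18 (0 to 0.22), and that of clock genes in 11 of 18 (-0.16 to 0.24). With 2 arrays at 12 h, precision is limited: the standard error of a difference had a median of 0.34 and a 90th percentile of 0.62.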
